A study of Mus musculus with 12 samples.

Results

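The 40 genes described here encode proteins that enter the secretory route or leave cells: 34 growth factors, hormones, guidance cues, binding proteins and carriers made with an N-terminal signal peptide, and 6 proteins that leave cells without a signal peptide (Fgf2, Lgals1, Lgals3, Hdgf, Mif and Txn1). They were chosen by name, as a list of secreted ligands and their binding proteins, from the 55416 gene identifiers in the count files. Earlier results of these data were known when the list was chosen. Of the 40, 37 passed the filter on low counts, and Cer1, Dkk1 and Fgf2 did not.

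All libraries came from the mouse embryonic stem cell line Rpl31-FTA E14Tg2a.4, in which the large-subunit ribosomal protein Rpl31 carries FLAG, a TEV protease site and an AviTag, grown in serum with leukemia inhibitory factor. The cells were transfected with plasmids for the N- and C-terminal fragments of ALIBi, which biotinylates tagged ribosomes near where it is targeted, and were lysed with cycloheximide, which holds ribosomes on mRNA. The 4 groups of 3 biological replicates were ER ribosome-bound RNA, purified with ribosomes biotinylated at the endoplasmic reticulum (ER), cytosol ribosome-bound RNA, purified with ribosomes biotinylated in the cytosol, and ER whole-cell and cytosol whole-cell RNA, taken from lysates of both targetings before purification. Tagged Rpl31 and the transfection were common to all 4 groups, so no group shows untransfected cells. Since the labels do not name separate cultures, a p-value speaks for the variation among these samples, which may be partly technical.

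Each library held 21.1 to 26.9 M reads in genes. Levels are given as TMM-scaled CPM, that is read counts relative to the scaled library size, and as CPM per kilobase of exon where genes are compared with each other. Rpl31 itself stood at 1053 to 1065 CPM in ER ribosome-bound, 947 to 984 in cytosol ribosome-bound, 1091 to 1165 in ER whole-cell and 1102 to 1170 in cytosol whole-cell RNA, and its tag is not separated by these counts. The 10 pluripotency markers (Pou5f1, Nanog, Sox2 and 7 others), all tested, summed to 9097 to 9157 CPM in ER ribosome-bound, 9932 to 10080 in cytosol ribosome-bound, 7759 to 7981 in ER whole-cell and 7850 to 7925 in cytosol whole-cell RNA. The 10 endoderm markers, 7 of them tested, summed to 102.5 to 121.6 CPM in ER ribosome-bound, 42.1 to 47.6 in cytosol ribosome-bound, 86.6 to 91.3 in ER whole-cell and 86.7 to 93.8 in cytosol whole-cell RNA. Against cytosol ribosome-bound RNA, the higher endoderm sum in ER ribosome-bound RNA was carried by Col4a1 and Lama1, which encode secreted matrix proteins. They averaged 74.2 and 22.7 CPM in ER ribosome-bound, against 19.7 and 8.2 CPM in cytosol ribosome-bound RNA (log2 1.91 and 1.47). The other 5 tested, Gata6, Sox17, Gata4, Dab2 and Sox7, lay at -0.05 to -0.82 on that log2 scale. In ER and cytosol whole-cell RNA, Col4a1 averaged 40.67 and 41.33 CPM. Lama1 averaged 36.37 and 35.55 CPM there, above its level in ER ribosome-bound RNA. The 8 fibroblast markers, 4 of them tested, summed to 88.8 to 92.9 CPM in ER ribosome-bound, 30.6 to 32.4 in cytosol ribosome-bound, 35.2 to 35.8 in ER whole-cell and 35.2 to 37.9 in cytosol whole-cell RNA. Up to 2 endoderm or fibroblast markers had no read in a given group, and the part of these cells in the results was not tested. In these bulk samples, fewer cells of a type and less RNA per cell cannot be told apart.

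Proteins with a signal peptide are usually recognised while still being made: a hydrophobic stretch near the N-terminus binds the signal recognition particle as it leaves the ribosome, and the ribosome is brought to the Sec61 channel of the ER. The mRNA is then translated on the ER surface and the protein passes to the Golgi and out of the cell. Proteins exported without a signal peptide are made on free ribosomes and cross the plasma membrane by other routes. Embryonic stem cells make several of these factors themselves, with Fgf4 as an autocrine signal that favours exit from self-renewal and Bmp4 as a signal that supports self-renewal beside leukemia inhibitory factor.

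The contrast between both classes can be seen in the first bases of the coding sequences, shown here for 6 signal-peptide members and 4 leaderless members. The sequences run 5′ to 3′ from the start codon and come from GENCODE M21 transcripts (GRCm38). Capitals mark the codons of the 9 residues with the highest mean Kyte-Doolittle hydropathy among residues 1 to 40, where a higher value is more hydrophobic. Fgf4 (chromosome 7), Bmp4 (14), Tgfb1 (7), Vegfa (17), Trh (6) and Apoe (7) stand for the signal-peptide class, and Fgf2 (3), Lgals1 (15), Mif (10) and Txn1 (4) for the leaderless class.
Fgf4: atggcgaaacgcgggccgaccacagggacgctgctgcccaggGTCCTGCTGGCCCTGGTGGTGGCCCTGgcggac
Bmp4: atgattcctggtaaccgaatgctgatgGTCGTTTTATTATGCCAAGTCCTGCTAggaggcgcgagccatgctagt
Tgfb1: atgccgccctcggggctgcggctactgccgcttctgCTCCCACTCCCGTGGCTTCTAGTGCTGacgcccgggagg
Vegfa: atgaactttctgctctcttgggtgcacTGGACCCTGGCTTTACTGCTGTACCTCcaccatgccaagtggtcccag
Trh: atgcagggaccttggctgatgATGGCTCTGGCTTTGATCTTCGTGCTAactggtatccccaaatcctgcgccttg
Apoe: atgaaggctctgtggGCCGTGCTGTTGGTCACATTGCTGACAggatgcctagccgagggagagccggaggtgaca
Fgf2: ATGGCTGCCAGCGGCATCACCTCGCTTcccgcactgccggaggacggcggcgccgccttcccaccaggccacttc
Lgals1: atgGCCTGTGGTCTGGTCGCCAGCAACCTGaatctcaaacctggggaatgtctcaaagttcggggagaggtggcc
Mif: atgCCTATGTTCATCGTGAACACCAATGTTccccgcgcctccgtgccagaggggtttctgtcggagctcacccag
Txn1: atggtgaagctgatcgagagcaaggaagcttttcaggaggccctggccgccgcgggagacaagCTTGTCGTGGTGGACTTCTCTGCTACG

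The marked windows reached a hydropathy of 3.49 in Fgf4, 3.16 in Trh, 2.98 in Bmp4, 2.67 in Apoe, 2.12 in Tgfb1 and 1.99 in Vegfa, and were rich in codons for leucine. In the leaderless genes they reached 1.78 in Txn1, 1.47 in Lgals1, 1.23 in Fgf2 and 0.92 in Mif. Over all members, 31 of 34 signal-peptide genes lay at or above 2 (1.22 to 3.56, median 2.96), and 0 of 6 leaderless genes did (0.64 to 1.78). The 3 signal-peptide genes below 2 were Vegfa, Fstl3 at 1.71 and Cgref1 at 1.22, whose highest window lay at residues 32 to 40 of the annotated transcript.

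The first comparison asked which of these mRNAs were on ER-labelled more than on cytosol-labelled ribosomes. All 32 tested signal-peptide genes were higher in ER ribosome-bound than in cytosol ribosome-bound RNA, 30 of them by more than 2-fold, with log2 ratios from 0.71 for Vegfb to 2.56 for Trh and a median of 1.74. None of the 5 tested leaderless genes was higher; Hdgf, Txn1 and Mif were lower, at -0.35, -0.23 and -0.09 on the log2 scale, and the median was -0.13. Among all 16221 tested genes 29.1% were higher, 24.6% were lower and 18.1% were higher by more than 2-fold, with a median log2 ratio of 0.00. With cytosolic scaling, which raised that median by 0.149, 6378 of the 16221 were higher and 1489 lower, and with RLE size factors 4387 were higher and 4743 lower. In 33 of the 34 signal-peptide genes all 3 ER libraries lay above all 3 cytosol libraries, as did 31.0% of all tested genes. In 4 of the 6 leaderless genes they lay below, as did 27.3% of all tested genes. Tgfb2 passed the filter through the ER ribosome-bound libraries alone, so its place among the called genes follows in part from the filter.

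**Figure D1:**
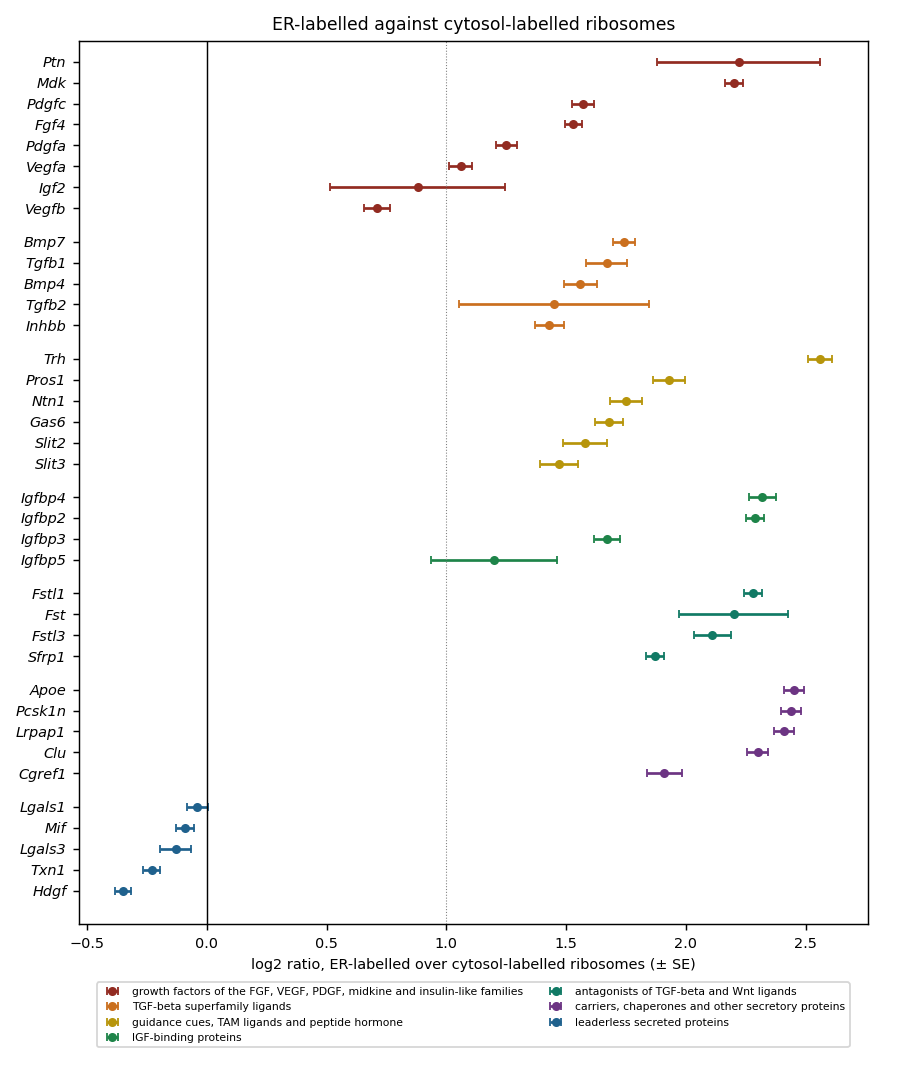
Log2 ratio of ER-labelled over cytosol-labelled ribosome-bound RNA (horizontal axis) for the 37 tested genes, grouped by role, with bars of 1 SE from edgeR's fit and a dotted line at 2-fold. The 32 signal-peptide genes lie between 0.71 and 2.56 and the 5 leaderless genes between -0.35 and -0.04.

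Fgf4 and Mdk were the most abundant growth factors with a signal peptide per length, at 104 and 249 CPM per kilobase in whole-cell RNA. The Fgf4 libraries stood at 872, 903 and 872 CPM on ER-labelled ribosomes, against 299, 301 and 314 CPM on cytosol-labelled ribosomes, with 337, 347 and 323 CPM in ER whole-cell and 329, 325 and 332 CPM in cytosol whole-cell RNA. The ER ribosome-bound libraries stood apart from the other 9, which lay between 299 and 347 CPM. The log2 ratio of ER-labelled over cytosol-labelled ribosomes was 1.53 ± 0.04 (SE, adjusted p = 5.4e-30). Mdk, midkine, a heparin-binding growth factor, had 1123, 1148 and 1137 CPM on ER-labelled and 248, 238 and 258 CPM on cytosol-labelled ribosomes, a log2 ratio of 2.20 ± 0.04 (adjusted p = 2.9e-33). Its relative Ptn, pleiotrophin, had 1.12, 1.71 and 1.59 CPM on ER-labelled, against 0.306, 0.387 and 0.251 CPM on cytosol-labelled ribosomes, and a log2 ratio of 2.22 ± 0.34 (adjusted p = 7.4e-07). The ratios of Mdk and Ptn were alike in size although Ptn had under 2 CPM in every library, and its error was wide.

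Apart from Igf2, both vascular growth factors had the lowest ratios of the tested signal-peptide genes. Vegfa, the main ligand of endothelial growth, had 164, 174 and 152 CPM on ER-labelled ribosomes, against 79.4, 72.7 and 82.7 CPM on cytosol-labelled ribosomes, a log2 ratio of 1.06 ± 0.05 (adjusted p = 1.2e-20). Vegfb, a ligand of the receptor Flt1, had 98.5, 107 and 108 CPM on ER-labelled, against 66.5, 62.4 and 63.5 CPM on cytosol-labelled ribosomes, a log2 ratio of 0.71 ± 0.06 (adjusted p = 1.5e-13). All 3 ER libraries were above the cytosol libraries for both genes. The platelet-derived ligands Pdgfa and Pdgfc, which signal through the receptor Pdgfra, had log2 ratios of 1.25 ± 0.04 and 1.57 ± 0.04, with means of 224 ± 13.5 and 111 ± 3.20 CPM on ER-labelled ribosomes and 94.04 ± 0.730 and 37.3 ± 0.918 CPM on cytosol-labelled ribosomes (SD, n = 3). Reads of Pdgfa may include some from 6330403L08Rik on the opposite strand, which held 789 reads over all libraries against 33312 for Pdgfa.

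Igf2, an imprinted insulin-like growth factor, gave the weakest call. It had 0.715, 0.636 and 0.592 CPM on ER-labelled ribosomes, against 0.459, 0.232 and 0.358 CPM on cytosol-labelled ribosomes, from 159 reads in all 12 libraries. The groups did not overlap, and the log2 ratio was 0.88 ± 0.36 (adjusted p = 0.041), a call that was lost under 15 of 20 other settings, DESeq2 among them. The whole-cell libraries, at 0.807, 0.639 and 0.570 CPM under ER targeting and 0.682, 0.426 and 0.526 CPM under cytosol targeting, spanned the ER ribosome-bound values.

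The 5 ligands of the TGF-beta superfamily were close to each other, with log2 ratios from 1.43 for Inhbb to 1.74 for Bmp7 and a median of 1.56. Bmp4 had 41.98, 38.8 and 39.3 CPM on ER-labelled ribosomes and 14.5, 12.8 and 13.3 CPM on cytosol-labelled ribosomes, and its log2 ratio was 1.56 ± 0.07 (adjusted p = 2.2e-21). Bmp7, a relative that acts in kidney and bone formation, had 154, 157 and 148 CPM on ER-labelled, against 49.1, 43.8 and 45.00 CPM on cytosol-labelled ribosomes (log2 1.74 ± 0.05, adjusted p = 6.6e-28). Tgfb1, which is held latent by its own propeptide after secretion, had 25.1, 24.2 and 22.7 CPM on ER-labelled, against 7.50, 7.67 and 7.48 CPM on cytosol-labelled ribosomes (log2 1.67 ± 0.09, adjusted p = 6.6e-19). In these 3 genes every ER library was above every cytosol library. Inhbb, the beta B subunit of activin and inhibin, averaged 49.5 ± 3.21 CPM on ER-labelled, against 18.4 ± 0.756 CPM on cytosol-labelled ribosomes (SD, n = 3). Tgfb2 had 0.983, 0.795 and 0.501 CPM on ER-labelled, against 0.383, 0.310 and 0.143 CPM on cytosol-labelled ribosomes, from 105 reads in all, and a log2 ratio of 1.45 ± 0.40 (adjusted p = 0.0021). It passed the filter through the ER ribosome-bound libraries alone, so this call follows in part from the filter.

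Trh, the precursor of thyrotropin-releasing hormone, had the highest ratio of all 37 tested members. Its libraries stood at 133, 140.1 and 141 CPM on ER-labelled ribosomes, against 21.3, 23.8 and 24.95 CPM on cytosol-labelled ribosomes, with 39.3, 39.9 and 40.9 CPM in ER whole-cell and 37.8, 40.1 and 36.9 CPM in cytosol whole-cell RNA. The cytosol ribosome-bound libraries were the lowest of the 12 and the ER ribosome-bound libraries the highest, and the log2 ratio was 2.56 ± 0.05 (adjusted p = 1.1e-31). The guidance cues are long or multidomain proteins that steer axons and cells: Ntn1, netrin 1, had a log2 ratio of 1.75 ± 0.07, Slit2 of 1.58 ± 0.09 and Slit3 of 1.47 ± 0.08. Slit2 had 21.9, 20.5 and 20.01 CPM on ER-labelled ribosomes, against 7.50, 6.66 and 6.73 CPM on cytosol-labelled ribosomes, while its whole-cell libraries, at 17.9, 18.9 and 15.05 CPM under ER targeting and 18.3, 14.8 and 17.1 CPM under cytosol targeting, were nearer to the ER-labelled ribosomes. Gas6 and Pros1 are vitamin K-dependent ligands of members of the Tyro3, Axl and Mertk receptor family. They averaged 62.5 ± 3.87 and 69.4 ± 3.84 CPM on ER-labelled ribosomes and 19.5 ± 0.349 and 18.1 ± 1.49 CPM on cytosol-labelled ribosomes (SD, n = 3). Their log2 ratios were 1.68 ± 0.06 and 1.93 ± 0.07.

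The IGF-binding proteins had a median log2 ratio of 1.98 and the antagonists of TGF-beta and Wnt ligands one of 2.15, beside 1.39 for the growth factors and 1.56 for the TGF-beta superfamily, a difference between lists that was not tested. Igfbp2, an insulin-like growth factor binding protein and the second most abundant secreted-protein mRNA per length among the signal-peptide members (608 CPM per kilobase in whole-cell RNA), had 5160.4, 5327 and 5383 CPM on ER-labelled ribosomes, against 1035, 1055 and 1146 CPM on cytosol-labelled ribosomes. All 3 ER libraries were above the cytosol libraries, and the log2 ratio was 2.29 ± 0.04 (adjusted p = 1.0e-33). Igfbp4, a binding protein that is cut by the protease Pappa, had 109, 105 and 103 CPM on ER-labelled, against 21.1, 18.5 and 23.8 CPM on cytosol-labelled ribosomes (log2 2.32 ± 0.06, adjusted p = 6.6e-29). Igfbp3 averaged 78.4 ± 0.197 CPM on ER-labelled, against 24.5 ± 1.27 CPM on cytosol-labelled ribosomes, and Igfbp5 averaged 1.73 ± 0.357 CPM on ER-labelled, against 0.753 ± 0.0645 CPM on cytosol-labelled ribosomes (SD, n = 3), with log2 ratios of 1.67 ± 0.05 and 1.20 ± 0.26. All 4 were higher by more than 2-fold, and the lower ratio of Igfbp5 carried a wide error.

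Among antagonists, Fst and Fstl3 bind and block activins, and Sfrp1 binds Wnt proteins. Fstl1, a follistatin-like secreted glycoprotein, had 441, 412 and 449 CPM on ER-labelled ribosomes, against 86.9, 92.4 and 89.00 CPM on cytosol-labelled ribosomes, a log2 ratio of 2.28 ± 0.04 (adjusted p = 2.1e-33). Sfrp1 had 396, 384 and 406 CPM on ER-labelled, against 111, 103 and 111 CPM on cytosol-labelled ribosomes (log2 1.87 ± 0.04, adjusted p = 1.4e-31). Fst averaged 3.60 ± 0.478 CPM on ER-labelled, against 0.784 ± 0.315 CPM on cytosol-labelled ribosomes, and Fstl3 averaged 57.3 ± 4.93 CPM on ER-labelled, against 13.3 ± 1.69 CPM on cytosol-labelled ribosomes (SD, n = 3), with log2 ratios of 2.20 ± 0.23 and 2.11 ± 0.08. The 4 tested antagonists lay between 1.87 and 2.28, with a median of 2.15. The remaining antagonists were too low to test. Dkk1, an inhibitor of the Wnt co-receptors Lrp5 and Lrp6, had 0.268, 0.358 and 0.228 CPM on ER-labelled ribosomes, against 0.191, 0 and 0.0720 CPM on cytosol-labelled ribosomes, from 42 reads in all, and without the filter its log2 ratio of 1.59 ± 0.74 did not pass (adjusted p = 0.094). Cer1, an inhibitor of Nodal and BMP ligands, had 1 read, in an ER ribosome-bound library, and its 0 reads in cytosol ribosome-bound, ER whole-cell and cytosol whole-cell RNA allow a group level of up to 0.038, 0.043 and 0.042 CPM by counting error alone.

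The carriers and chaperones of the secretory route had the highest group median, 2.41. Apoe, the apolipoprotein that carries lipid, was the most abundant signal-peptide member per length, at 746 CPM per kilobase in whole-cell RNA. It had 7780.1, 8281 and 7907 CPM on ER-labelled ribosomes, against 1388, 1416 and 1586 CPM on cytosol-labelled ribosomes, a log2 ratio of 2.45 ± 0.04 (adjusted p = 2.2e-33). Clu, clusterin, an extracellular chaperone, had 168, 166 and 161 CPM on ER-labelled, against 34.4, 32.1 and 34.2 CPM on cytosol-labelled ribosomes (log2 2.30 ± 0.04, adjusted p = 8.5e-32). Lrpap1, an ER-resident chaperone of LDL receptor family members, had 468, 433 and 479 CPM on ER-labelled, against 81.9, 90.1 and 87.9 CPM on cytosol-labelled ribosomes (log2 2.41 ± 0.04, adjusted p = 1.6e-33). These 3 genes lay between 2.30 and 2.45 in log2 ratio, and none had overlapping groups. Pcsk1n, the source of an inhibitor of the convertase Pcsk1, had a log2 ratio of 2.44 ± 0.04 and overlaps Eras on the opposite strand, which held 17730 reads over all libraries against 68407 for Pcsk1n. Cgref1, a secreted protein with EF hands, averaged 42.9 ± 2.34 CPM on ER-labelled, against 11.4 ± 0.341 CPM on cytosol-labelled ribosomes (SD, n = 3), a log2 ratio of 1.91 ± 0.07.

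**Figure D2:**
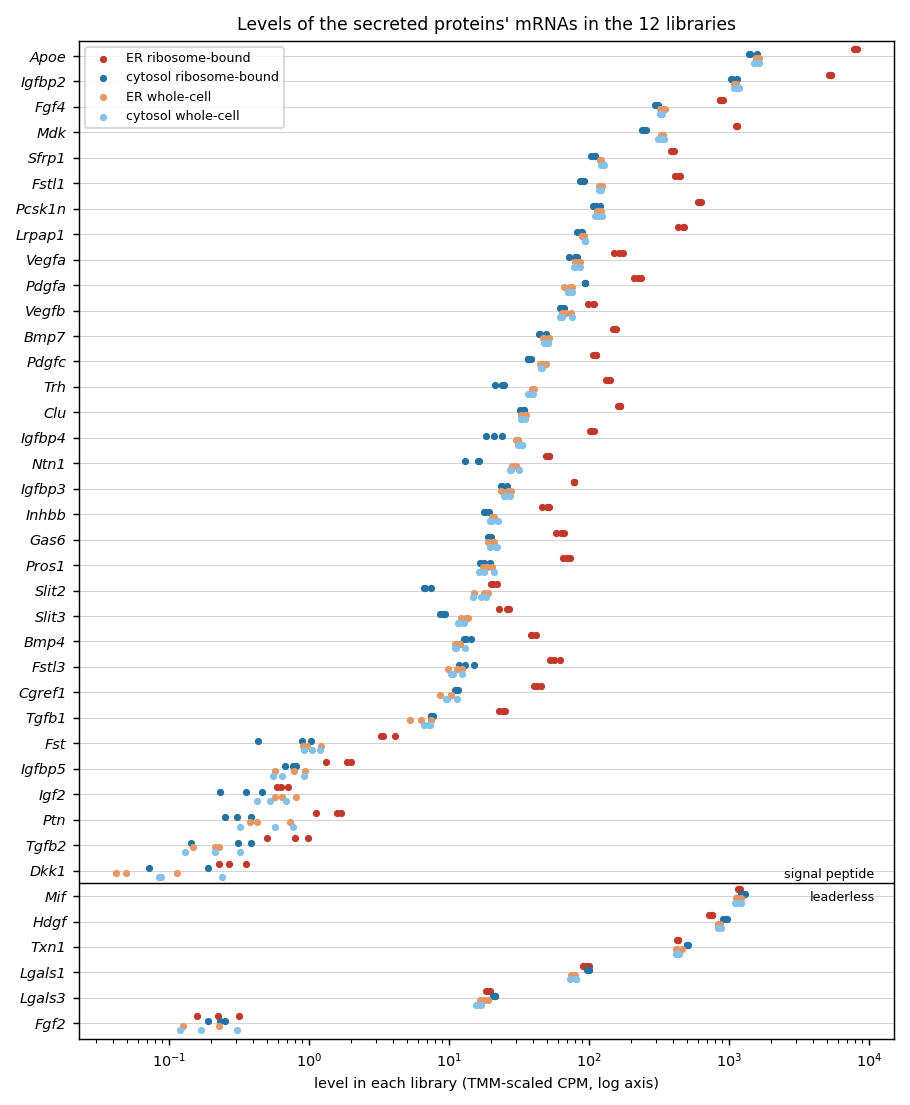
Level of each gene in each of the 12 libraries (horizontal log axis, TMM-scaled CPM; 4 groups of 3 points), with signal-peptide genes above the line and leaderless genes below it. Values of 0 (1 library each for Dkk1 and Fgf2) and Cer1, with 1 read in all, are not drawn; the ER ribosome-bound points lie to the right of all others for every drawn signal-peptide gene except Igf2 and Dkk1, and to the left of the cytosol ribosome-bound points for Mif, Hdgf, Txn1 and Lgals3.

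The leaderless genes did not share this pattern. Hdgf, a heparin-binding growth factor that is also nuclear, had 718, 753 and 756 CPM on ER-labelled ribosomes, against 914, 967 and 959 CPM on cytosol-labelled ribosomes. All ER libraries lay below all cytosol libraries, and the log2 ratio was -0.35 ± 0.03 (adjusted p = 2.7e-11). Txn1, thioredoxin, a cytosolic redox protein also released by cells, had 432, 434 and 429.6 CPM on ER-labelled, against 506, 505 and 508 CPM on cytosol-labelled ribosomes (log2 -0.23 ± 0.04, adjusted p = 8.6e-07). Mif, a cytokine and the most abundant member per length at 1550 CPM per kilobase in whole-cell RNA, had 1169, 1202 and 1181 CPM on ER-labelled, against 1303, 1223 and 1255 CPM on cytosol-labelled ribosomes (log2 -0.09 ± 0.04, adjusted p = 0.039). In both genes all 3 ER libraries lay below the cytosol libraries.

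The 2 galectins, which bind beta-galactosides at the cell surface, gave no call in the fit of all libraries with TMM scaling and the filter on low counts. Under 20 other settings Lgals3 was called lower in 12, and Lgals1 was called lower in 7 and higher in 1, cytosolic scaling. Lgals3 had 19.7, 19.5 and 18.5 CPM on ER-labelled ribosomes, against 21.3, 20.6 and 21.3 CPM on cytosol-labelled ribosomes, a log2 ratio of -0.13 ± 0.07 (adjusted p = 0.085), and its groups did not overlap. Lgals1 had 91.3, 95.7 and 100.0 CPM on ER-labelled, against 98.3, 99.6 and 96.98 CPM on cytosol-labelled ribosomes, overlapping groups and a log2 ratio of -0.04 ± 0.04 (adjusted p = 0.48). Fgf2, an FGF that crosses the plasma membrane directly, had 0.224, 0.159 and 0.319 CPM on ER-labelled, against 0.191, 0.232 and 0.251 CPM on cytosol-labelled ribosomes, from 57 reads in all, and was not tested; without the filter its log2 ratio was -0.03 ± 0.61 (adjusted p = 1). It overlaps Nudt6 on the opposite strand, which held 877 reads, and the strand setting of the counter is not given in the sources used here. Pseudogenes named for Mif, Txn1 and Lgals1 held 73 reads over all libraries.

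These small differences depend on the scale. When libraries were scaled on 98 genes for cytosolic proteins instead, the median of all tested genes moved up by 0.149, Lgals1 became 0.11 and was called higher, and Mif became 0.06. Both lay below that shift. The count of higher signal-peptide genes was 32 under that scale too, beside 39.3% of all tested genes.

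Summed over the class, the signal-peptide genes stood at 18900 ± 351 CPM on ER-labelled ribosomes, against 4050 ± 202 CPM on cytosol-labelled ribosomes, with 4443 ± 94.5 CPM in ER whole-cell and 4450 ± 144 CPM in cytosol whole-cell RNA (SD, n = 3). The leaderless genes summed to 2474 ± 37.8 CPM on ER-labelled ribosomes, 2833 ± 15.4 on cytosol-labelled ribosomes, 2541 ± 72.4 in ER whole-cell and 2529 ± 93.4 in cytosol whole-cell RNA. The signal-peptide share of the members' total was therefore 88.4% ± 0.058 on ER-labelled ribosomes, 58.8% ± 1.1 on cytosol-labelled ribosomes, 63.6% ± 0.54 in ER whole-cell and 63.8% ± 0.12 in cytosol whole-cell RNA. Apoe made up 42.3% and Igfbp2 28.0% of the signal-peptide sum on ER-labelled ribosomes, against 36.1% and 26.6% on cytosol-labelled ribosomes. With both left out, the share was 69.2% to 69.7% on ER-labelled ribosomes, 34.3% to 35.3% on cytosol-labelled ribosomes and 40.1% to 41.0% in whole-cell RNA of either targeting.

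**Figure D3:**
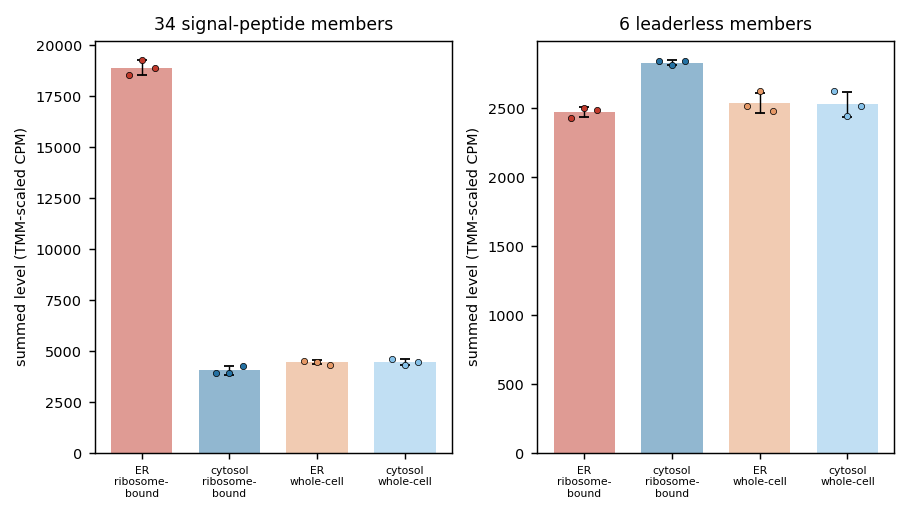
Summed level (vertical axis, TMM-scaled CPM) of the 34 signal-peptide genes (left) and the 6 leaderless genes (right) in the 4 groups; bars are means, error bars SD, points the 3 libraries, and the vertical scales differ. The signal-peptide sum is 18900 CPM on ER-labelled ribosomes and 4050 to 4450 CPM in the other groups, and the leaderless sum lies between 2474 and 2833 CPM in all 4.

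The next comparisons set each ribosome pool against the whole-cell RNA of its own lysates. On ER-labelled ribosomes, 31 of the 32 tested signal-peptide genes were higher than in ER whole-cell RNA, 26 of them by more than 2-fold, with a median log2 ratio of 1.74. Tgfb2, among the 26, passed the filter through the ER ribosome-bound libraries alone. Of all tested genes 32.5% were higher, 30.6% were lower and 16.5% were higher by more than 2-fold, with a median of 0.01. Pcsk1n at 2.38 ± 0.04, Fstl3 at 2.36 ± 0.08 and Lrpap1 at 2.35 ± 0.04 had the highest log2 ratios. Igf2, at -0.05 ± 0.33 (adjusted p = 0.91), did not pass. Slit2 was higher by a log2 ratio of 0.28 ± 0.08 (adjusted p = 0.0033), with a range of 20.0 to 21.9 CPM on ER-labelled ribosomes and 15.0 to 18.9 CPM in ER whole-cell RNA, and was not called without ER whole-cell replicate 3. Vegfb at 0.59 ± 0.06, Ntn1 at 0.80 ± 0.06, Slit3 at 0.95 ± 0.07 and Vegfa at 0.97 ± 0.05 were the other called genes under 2-fold. Among leaderless genes Lgals1 was higher (log2 0.30 ± 0.04, adjusted p = 2.1e-07) and Hdgf lower (log2 -0.19 ± 0.03, adjusted p = 1.0e-05), while Lgals3, Mif and Txn1 lay at 0.12, 0.03 and -0.02 without a call. With cytosolic scaling the median of all genes was 0.249 higher, Hdgf became 0.06 and Txn1 0.24, and 4 leaderless genes were called higher and 0 lower, where 8446 of all 16221 genes were higher and 2220 lower.

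On cytosol-labelled ribosomes the leaderless genes were higher, but not they alone. All 5 tested leaderless genes were higher than in cytosol whole-cell RNA, from 0.13 ± 0.04 for Mif to 0.36 ± 0.07 for Lgals3 on the log2 scale, and this count was 5 under all 21 other settings. Of the 32 tested signal-peptide genes 3 were higher, 14 were lower and 15 were not called, with a median of -0.12. Among all tested genes 20.8% were higher and 33.0% were lower, with a median of -0.05. Of the 10 pluripotency markers 8 were higher and 1 lower, with a median of 0.35. The 98 genes for cytosolic proteins had 36 higher and 37 lower, with a median of 0. In settings where only 9 signal-peptide genes were lower, 26.4% to 30% of all tested genes were lower, apart from 15.8% without a filter. With a filter the 9 were near that share, so the count then gives no result about the class. Of the 14 lower signal-peptide genes 9 were lower in all 21 other settings. Fgf4, Bmp7, Inhbb, Apoe and Lrpap1, with log2 ratios of -0.11 to -0.17, each lost the call in 16 or 17 of the 21.

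Slit2 had the lowest ratio among these, with 7.50, 6.66 and 6.73 CPM on cytosol-labelled ribosomes, against 18.3, 14.8 and 17.1 CPM in cytosol whole-cell RNA, a log2 ratio of -1.27 ± 0.09 (adjusted p = 6.2e-14). Ntn1 had 12.97, 16.5 and 16.1 CPM on cytosol-labelled ribosomes, against 27.3, 31.6 and 27.9 CPM in cytosol whole-cell RNA (log2 -0.93 ± 0.07, adjusted p = 1.6e-13). The ranges of both genes were far apart, and with Slit3 at -0.42 ± 0.09 all 3 guidance cues were among the 9. Trh, with 21.3, 23.8 and 24.95 CPM on cytosol-labelled ribosomes, against 37.8, 40.1 and 36.9 CPM in cytosol whole-cell RNA, had a log2 ratio of -0.71 ± 0.06 (adjusted p = 2.4e-13). Igfbp4 at -0.62 ± 0.06, Fstl1 at -0.43 ± 0.04, Mdk at -0.41 ± 0.04, Pdgfc at -0.30 ± 0.05 and Sfrp1 at -0.21 ± 0.04 completed the set. In the other direction Pdgfa had 94.5, 93.2 and 94.4 CPM on cytosol-labelled ribosomes, against 75.2, 70.7 and 71.2 CPM in cytosol whole-cell RNA, a log2 ratio of 0.38 ± 0.05 (adjusted p = 9.2e-09). Fstl3 at 0.25 ± 0.10 (adjusted p = 0.024) and Bmp4 at 0.21 ± 0.08 (adjusted p = 0.028) were also higher, and without cytosol ribosome-bound replicate 1 only Pdgfa and no other signal-peptide gene was called higher.

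**Figure D4:**
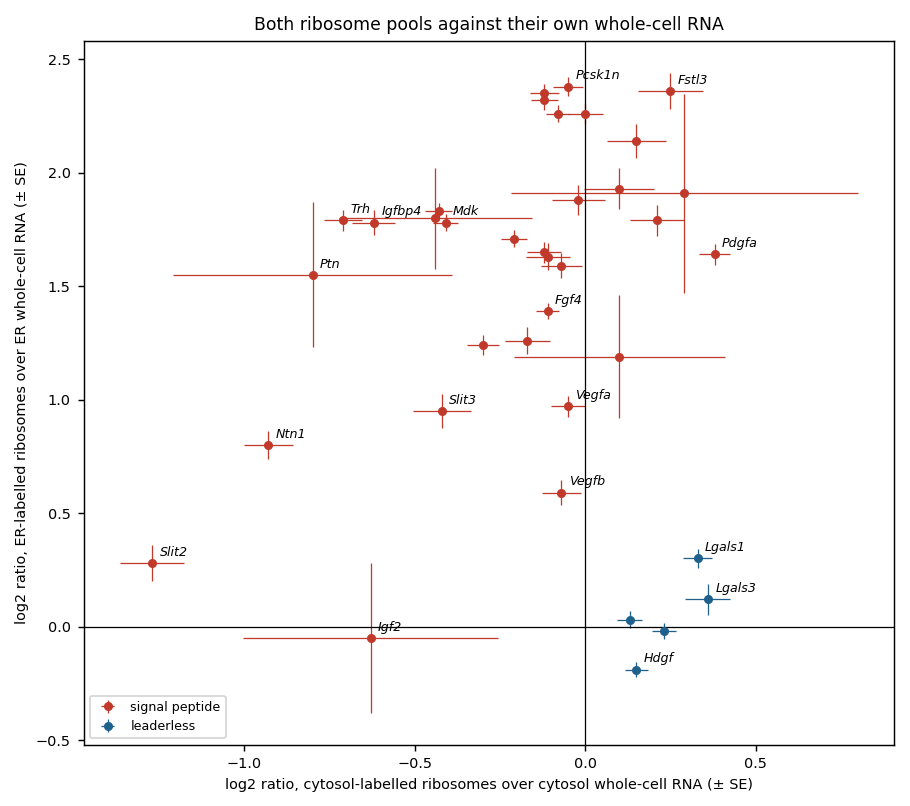
Log2 ratio of ER-labelled ribosomes over ER whole-cell RNA (vertical axis) against that of cytosol-labelled ribosomes over cytosol whole-cell RNA (horizontal axis) for the 37 tested genes, with bars of 1 SE. Signal-peptide genes (red) spread from -1.27 to 0.38 across and from -0.05 to 2.38 upwards, and the 5 leaderless genes (blue) sit at 0.13 to 0.36 across and -0.19 to 0.30 upwards.

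In whole-cell RNA no member was called different between the targetings. Log2 ratios of ER whole-cell over cytosol whole-cell RNA ran from -0.17 to 0.29 in the signal-peptide genes and from -0.01 to 0.11 in the leaderless genes, with 0 of 37 called. Of all tested genes 0% were called higher and 0% lower by edgeR's quasi-likelihood test, with 634 at an unadjusted p under 0.05, and DESeq2 called 0 with 342 at an unadjusted p under 0.05. The enrichment on ER-labelled ribosomes minus that on cytosol-labelled ribosomes, each over its own whole-cell RNA, was higher in 30 of 32 signal-peptide genes (median log2 difference 1.80) and lower in 3 of 5 leaderless genes (median -0.24), where 24.8% of all tested genes were higher and 18.6% lower, with a median of 0.00. Igf2 at 0.59 ± 0.50 (adjusted p = 0.38) and Tgfb2 at 1.62 ± 0.70 (adjusted p = 0.06) did not pass. The leaderless genes that passed were Hdgf at -0.34 ± 0.05, Txn1 at -0.25 ± 0.05 and Lgals3 at -0.24 ± 0.10, while Mif at -0.10 ± 0.05 and Lgals1 at -0.02 ± 0.06 did not. Under 20 other settings Mif was called lower in 13, Lgals3 lost its call in 4 and Txn1 in 1. With cytosolic scaling Mif was at 0.06 and Lgals1 at 0.14, neither called. This comparison shares its ribosome-bound libraries with the first and is not separate evidence.

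The windows printed above can be set beside these ratios. Over the 32 tested signal-peptide genes the log2 ratio of ER-labelled over cytosol-labelled ribosomes and the N-terminal hydropathy had a Pearson r of 0.23 and a Spearman rho of 0.30, protein length had -0.02 and 0.01, and the logarithm of the whole-cell level had 0.32 and 0.33, as descriptions across genes of the same libraries. Cgref1, with the least hydrophobic window at 1.22, had a ratio of 1.91 ± 0.07. That window lay at residues 32 to 40 of the annotated transcript. Whether the start of that transcript is the one used was not tested. Igfbp5, with a strongly hydrophobic window at 3.50, had 1.20 ± 0.26, from 284 reads in all. Txn1 reached 1.78, above Cgref1 and Fstl3, and was lower on ER-labelled ribosomes. Among all tested genes with a coding sequence, 2064 of 3313 with a window at or above 2 (62.3%) were higher by more than 2-fold, against 813 of 10833 below 2 (7.5%).

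**Figure D5:**
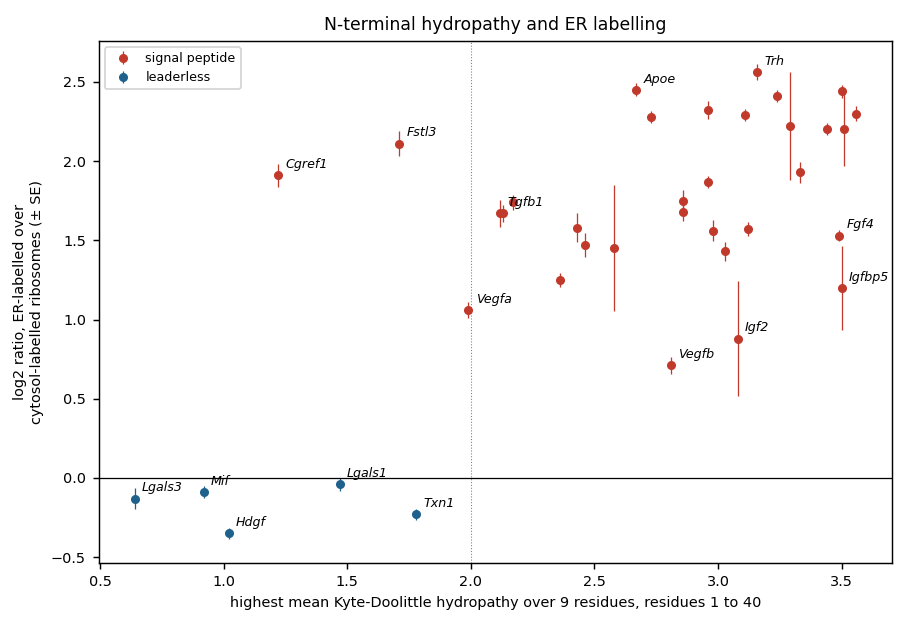
Log2 ratio of ER-labelled over cytosol-labelled ribosome-bound RNA (vertical axis, bars of 1 SE) against the highest mean Kyte-Doolittle hydropathy over 9 residues within residues 1 to 40 (horizontal axis) for the 37 tested genes, with a dotted line at 2. Leaderless genes lie at 0.64 to 1.78 and near or below 0 on the vertical axis, and signal-peptide genes at 1.22 to 3.56 and at 0.71 and above.

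Genes that act with these ligands were examined from further lists, to be read beside the 29.1% of all tested genes that were higher and the 24.6% that were lower on ER-labelled than on cytosol-labelled ribosomes. Of 45 receptors of the ligands, which span the membrane and enter it at the ER, 41 were tested, and 38 were higher and 0 lower on ER-labelled than on cytosol-labelled ribosomes, with a median of 1.51. Tgfbr3, a TGF-beta co-receptor, at 2.30, Vldlr, a receptor of lipoproteins, at 2.17 and the Wnt co-receptor Lrp5 at 2.14 had the highest ratios. Of 14 convertases and activating proteases, which cut ligand precursors in the secretory route or outside cells, 12 were tested and 10 were higher, among them Htra1 at 2.20 and Mbtps1 at 1.85, with a median of 1.56. Of 28 other proteins exported without a signal peptide, 26 were tested, 2 were higher (S100a6 at 0.59 and Tpt1 at 0.25) and 15 were lower, among them Hdgfl2 at -0.45, Lgals9 at -0.36 and Hmgb1 at -0.35, with a median of -0.20. Of these 28, Eno1, Hspa8 and Hsp90aa1 also belong to the 98 cytosolic scaling genes. Of those 98, 10 were higher and 72 lower, with a median of -0.24. Among the 10 pluripotency markers 0 were higher and 6 lower, with a median of -0.17. Lower ratios were thus not particular to exported proteins. Of 21 genes of the unconventional secretion machinery 20 were tested, with 6 higher, 7 lower and a median of -0.08, counts near those shares of all tested genes, so the list as a whole gives no result. The higher ones were led by Tmed10, a transmembrane cargo receptor, at 2.39, Gpc1, a GPI-anchored glypican that takes part in Fgf2 export, at 1.91 and Atp1b1, a subunit of the sodium pump, at 1.89. The lower ones were led by the pore-forming Gsdmd at -0.35, the ESCRT protein Tsg101 at -0.29 and the SNARE Sec22b at -0.27. Under cytosolic scaling, tried for these lists after seeing the data, 5 of the other exported proteins were higher and 9 lower, and 9 genes of the machinery were higher and 3 lower with a median of 0.07, while 39.3% of all tested genes were higher, 9.18% were lower and the median of all genes was 0.149 higher; Lgals9 and Gsdmd then lost their calls. The receptors and convertases, with 39 and 10 higher and 0 lower, did not turn under it. With RLE size factors 6 genes of the machinery were higher and 11 lower.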

How the data were processed

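Each library has a deposited file of raw gene counts, not normalized. STAR 2.7.9a, HTSeq 0.11.2 and DESeq2 (no version) were used with GRCm39, per the submitters' processing notes. The annotation release is not given in the sources used here, nor is the strand setting, so overlapping genes are uncertain. Directional poly(A) libraries were made, per the labels' protocols. The 5 class totals outside genes (8.75% to 12.54% of reads) were left out, and symbols from GENCODE M21 matched 52083 of 55416 identifiers. All 12 libraries were fitted together by group with edgeR 4.0.16 (filterByExpr, 16221 genes, TMM scaling), and 5 comparisons were made by edgeR's 2-sided quasi-likelihood test, with Benjamini-Hochberg adjustment over all tested genes and a threshold of 0.05. The SE of a log2 ratio is its size divided by the root of the F statistic. Alternatives were RLE and cytosolic-gene scaling, no filter, DESeq2 1.42.0, replicate blocks, fewer libraries and each replicate left out. The procedure was tested on simulated data with few changed genes, raised and lowered alike. That cannot speak for the scaling where many genes change, as here. Replicates differed beyond counting noise (chi-square per gene 2.08 to 8.81). Errors do not cover PCR duplication. All 40 members are named, plus up to 3 genes per further list and direction. The members and lists were chosen with earlier results of these data known.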

Additional observations from a re-analysis of the deposited data

Results flagged for a closer look

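The enrichment over whole-cell RNA differed between ER-labelled and cytosol-labelled ribosomes in 30 of the 32 tested signal-peptide genes, which were more enriched on ER-labelled ribosomes, by the test of that difference, beside 24.8% of all tested genes. The same test found 3 leaderless genes (Hdgf, Txn1 and Lgals3) less enriched on ER-labelled than on cytosol-labelled ribosomes, beside 18.6% of all tested genes.

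Signal-peptide genes called higher on ER-labelled ribosomes and lower on cytosol-labelled ribosomes, each against its own whole-cell RNA, numbered 14, all of them among the 30; 1771 of all 16221 tested genes, 10.9%, had the same calls. They were Fgf4, Pdgfc, Mdk, Bmp7, Inhbb, Ntn1, Slit2, Slit3, Trh, Igfbp4, Fstl1, Sfrp1, Apoe and Lrpap1. This count was between 8 (without ER whole-cell replicate 3) and 15 over the other settings. The opposite pattern, lower on ER-labelled and higher on cytosol-labelled ribosomes, was found in 1 gene, Hdgf, and in 438 of all tested genes, 2.7%.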

How the results depend on the processing

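Counts of called signal-peptide and leaderless genes were recomputed under 20 or 21 other settings per comparison. The 14 signal-peptide genes lower on cytosol-labelled ribosomes than in cytosol whole-cell RNA became 9 with RLE size factors, cytosolic scaling, mitochondrially encoded genes left out, no filter, DESeq2, only the libraries compared, and the filter on the 9 other libraries, the last chosen after seeing the data, and 9 to 14 with 1 replicate left out (9 without any 1 of the ER ribosome-bound replicates, cytosol ribosome-bound replicate 2, ER whole-cell replicate 2 or 3, or cytosol whole-cell replicate 3). Of all tested genes 33.0% were lower in the fit of all libraries. In the settings with 9 the share was 26.4% to 30%, apart from 15.8% without a filter. With a filter the 9 were thus near the share of all tested genes. The 3 higher genes, beside 20.8% of all tested genes, became 1 to 4, with 1 without cytosol ribosome-bound replicate 1, beside 19.7%. On ER-labelled against cytosol-labelled ribosomes, the 0 leaderless genes higher became 1 with cytosolic scaling, and the 3 lower became 5 without a filter and 2 to 5 with 1 replicate left out (5 without ER whole-cell replicate 2 or 3 or any 1 of the cytosol whole-cell replicates, 2 without cytosol ribosome-bound replicate 1 or 3). Of all tested genes 24.6% were lower there in the fit of all libraries. The share was 30.9% to 31.1% in the replicate-out fits with 5, 22.3% to 23.1% in those with 2, and 16.9% without a filter. With cytosolic scaling 39.3% were higher. On ER-labelled ribosomes against ER whole-cell RNA, cytosolic scaling gave 4 leaderless genes higher and 0 lower, and for the difference of enrichments 1 lower. Of all tested genes 52.1% were then higher and 13.7% lower in the former, and 4.99% lower in the latter. Under that scaling Lgals1 (0.11), Mif (0.06) and Lgals3 (0.02, not called) in ER-labelled against cytosol-labelled ribosomes, and Hdgf (0.06) and Txn1 (0.24) in ER-labelled ribosomes against ER whole-cell RNA, changed sign, as did Lgals1 (0.14) and Mif (0.06) in the difference of enrichments, neither called. That scaling moves the median of all genes by 0.149, 0.249 and 0.164. In the settings with 9 lower signal-peptide genes, the median of cytosol-labelled ribosomes over cytosol whole-cell RNA moved by 0.04 to 0.085. For ER-labelled against cytosol-labelled ribosomes it moved by -0.06 in the replicate-out fits with 5 lower leaderless genes. In those with 2 it moved by 0.001 to 0.002. It moved by -0.001 without a filter, where 5 were lower, and by -0.041 to -0.064 in some settings without 5. The cause of the changes outside cytosolic scaling was not tested. With 1 replicate left out, higher signal-peptide genes numbered 31 to 32 for ER-labelled against cytosol-labelled ribosomes, beside 24.9% to 28.6% of all tested genes. They numbered 30 to 31 for ER-labelled ribosomes against ER whole-cell RNA, beside 30.4% to 32.1%. For the difference of enrichments they numbered 29 to 31, beside 22.1% to 24%. The leaderless genes then numbered 5 higher on cytosol-labelled ribosomes, beside 18.4% to 25.6% of all tested genes. On ER-labelled ribosomes 1 was higher and 1 lower, beside 30.4% to 32.1% higher and 28.4% to 30.4% lower. For the difference 2 to 4 were lower, beside 17% to 23.1%.

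With the replicate number as a block, the ER-labelled against cytosol-labelled count stayed at 32 higher signal-peptide genes and 3 lower leaderless genes. Of all tested genes 28.9% were then higher and 24.3% lower, and no count of members moved by over 1.5 times. Same-numbered ER ribosome-bound and ER whole-cell libraries deviated together at r = -0.005, 0.156 and 0.163, and differently numbered ones at -0.169 to 0.025. For the cytosol libraries the same-numbered values were 0.054, 0.05 and 0.009, and the others -0.084 to 0.033. These values do not settle whether the numbers pair the samples, and the fit by group took no pairing. Genes near the limit of detection (Igf2, Tgfb2, Ptn, Igfbp5, Dkk1, Fgf2 and Cer1) are limited by depth.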
